A study of Mus musculus with 6 samples.

Results

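The transcription factors that set the identity of helper, regulatory and follicular T cells were followed across the Ikzf3 genotypes. The members were 9 genes taken by their symbols from the 25239 genes listed in each library: Foxp3, Tbx21, Eomes, Gata3, Rora, Bcl6, Prdm1, Maf and Zbtb7b. All 9 passed the filter on low counts, as did 12117 genes in all. The study asked what the N159S change in Aiolos, the Ikaros family zinc finger protein encoded by Ikzf3, does to lymphocytes of C57BL/6 mice that carry it as a CRISPR/Cas9 knock-in. RNA-seq was made from TCRb+CD4+CD44-CD127+ T cells sorted from spleen. The genotypes were Ikzf3 +/+ (no variant allele), Ikzf3 +/N159S (a single variant allele) and Ikzf3 N159S/N159S (both alleles variant), with 2 libraries each. The labels name no treatment of the animals, and their age and sex in this experiment were not given in the sources used here. The sort on low CD44 and on CD127 selects cells close to naive CD4 T cells and selects against most effector and regulatory cells.

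A naive CD4 T cell keeps several fates open, and each fate is tied to a leading transcription factor that switches on its own programme and represses the others. T-bet (Tbx21) and Eomes direct interferon-gamma producing and cytotoxic cells, GATA3 directs Th2 cells, ROR-alpha (Rora) takes part in Th17 and innate lymphoid programmes, and Foxp3 defines regulatory T cells. Bcl6 and c-Maf (Maf) act in follicular helper cells, Blimp-1 (Prdm1) opposes Bcl6, and ThPOK (Zbtb7b) commits thymocytes to the CD4 lineage.

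The libraries held 11696461 to 17317260 reads on genes, between 50.7 and 57.7% of what the deposited tables list, and the CD4 T cell identity was carried by all 6. Cd4 was at 681 to 994 counts per 1000000 reads on genes (CPM) and Cd3e at 284 to 429 CPM, against 1.03 to 4.66 CPM of Cd8a. Cd8b1, which encodes the other CD8 chain, was at 2.05 to 20.1 CPM and is described further below. Other values separated the Ikzf3 +/N159S libraries from the rest. Xist, the RNA of the inactive X chromosome, was at 731 and 824 CPM there and at 0.773 to 1.98 CPM in the other 4 libraries, and Y-linked Ddx3y was at 1.06 and 1.09 CPM against 264 to 313 CPM. All 5 sex-linked genes examined passed the test between Ikzf3 +/N159S and either other genotype, so that sex and the Ikzf3 +/N159S genotype cannot be told apart. The summed level of 10 B cell markers was 189 and 292 CPM for Ikzf3 +/+, 512 and 837 CPM for Ikzf3 +/N159S and 197 and 129 CPM for Ikzf3 N159S/N159S T cells. Of these markers 6 of 10 were higher in Ikzf3 +/N159S than in Ikzf3 +/+, and 10 of 10 were lower in Ikzf3 N159S/N159S than in Ikzf3 +/N159S (FDR under 0.05). None of the 10 was at 0 in all libraries.

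In the wild-type libraries the factors spanned more than 2 orders of magnitude once scaled for length (RPKM, a unit that scales reads by exon length and library size). Zbtb7b led at 74.1 ± 4.92 RPKM (SD, n = 2) and Gata3 followed at 26.9 ± 2.28 RPKM, both far above the others and not overlapping each other or Bcl6, at 6.88 ± 0.770 RPKM. These levels put Zbtb7b at percentile 93.2 and Gata3 at percentile 74.8 of all tested genes by mean RPKM over the 6 libraries. The CD4 commitment factor and the Th2 factor were thus the abundant members in these cells. Prdm1 at 2.36 ± 0.351 RPKM and Foxp3 at 2.30 ± 0.784 RPKM overlapped each other, as did Rora at 1.21 ± 0.00127, Eomes at 1.02 ± 0.519 and Maf at 0.975 ± 0.0920 RPKM in part, since the Eomes libraries spread widely enough to enclose both neighbours. Tbx21 was lowest at 0.233 ± 0.0614 RPKM, at percentile 7.29. In Ikzf3 +/N159S T cells Foxp3 stood at 5.95 ± 2.42 RPKM, overlapping Bcl6 at 6.26 ± 0.683 RPKM, and Maf at 2.50 ± 0.291 RPKM lay above Prdm1, Rora and Eomes.

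**Figure D1:**
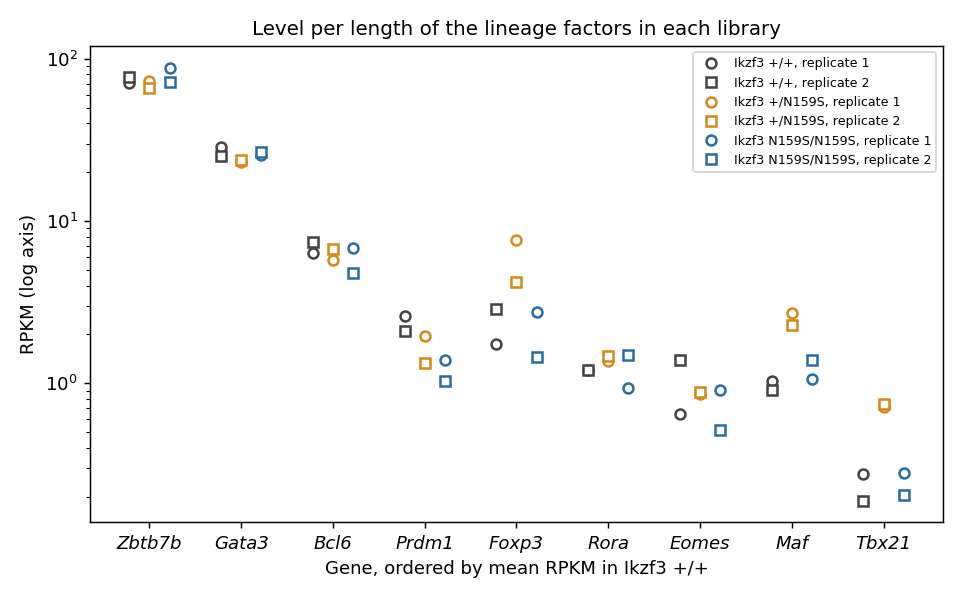
Level per length (RPKM, log axis) of each of the 9 genes in each library, ordered by the mean in Ikzf3 +/+, with colour for genotype and circles and squares for replicates 1 and 2. Zbtb7b and Gata3 sit above all others, and Foxp3, Maf and Tbx21 are the genes whose Ikzf3 +/N159S points stand above their other points.

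Genotypes were compared by edgeR's quasi-likelihood test over all tested genes, with the Benjamini-Hochberg adjusted p given as FDR, and a gene was taken as changed at an FDR under 0.05. Where Ikzf3 N159S/N159S was set against Ikzf3 +/+, 0 of the 9 factors passed, where 5.26% of all tested genes did. At an unadjusted p under 0.05 there was 1 factor, Prdm1, DESeq2 gave 0 and edgeR's likelihood ratio test gave 1. Between Ikzf3 +/N159S and Ikzf3 +/+ T cells 1 of 9 rose, Maf, where 1.75% of all genes were called and 1.15% were called higher. Between Ikzf3 N159S/N159S and Ikzf3 +/N159S T cells 2 of 9 were lower, Foxp3 and Maf, where 1.66% of all genes were called. The same pair lay above the log2 midpoint between Ikzf3 +/+ and Ikzf3 N159S/N159S in Ikzf3 +/N159S T cells, where 1.03% of all genes departed from the midpoint and 0.825% lay above it. These comparisons share libraries, so the calls are not independent of each other. With 2 libraries against 2, a two-sided exact permutation test on its own could reach no p below 0.333, and the FDR values borrow their estimate of spread from other genes.

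Groups that did not overlap were common in these data. The libraries of Ikzf3 N159S/N159S and Ikzf3 +/+ did not overlap for 2 of 9 factors, Prdm1 and Maf, against 48.3% of all tested genes. For Ikzf3 +/N159S against Ikzf3 +/+ there were 6 of 9 (Foxp3, Tbx21, Gata3, Rora, Prdm1 and Maf) against 47.1%, and for Ikzf3 N159S/N159S against Ikzf3 +/N159S there were 4 of 9 (Foxp3, Tbx21, Gata3 and Maf) against 41.1%. The plot of normalized counts shows a shared shape for Maf, Foxp3 and Tbx21, high in Ikzf3 +/N159S and low on both sides, and a different one for Prdm1, whose means step down from Ikzf3 +/+ over Ikzf3 +/N159S to Ikzf3 N159S/N159S.

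**Figure D2:**
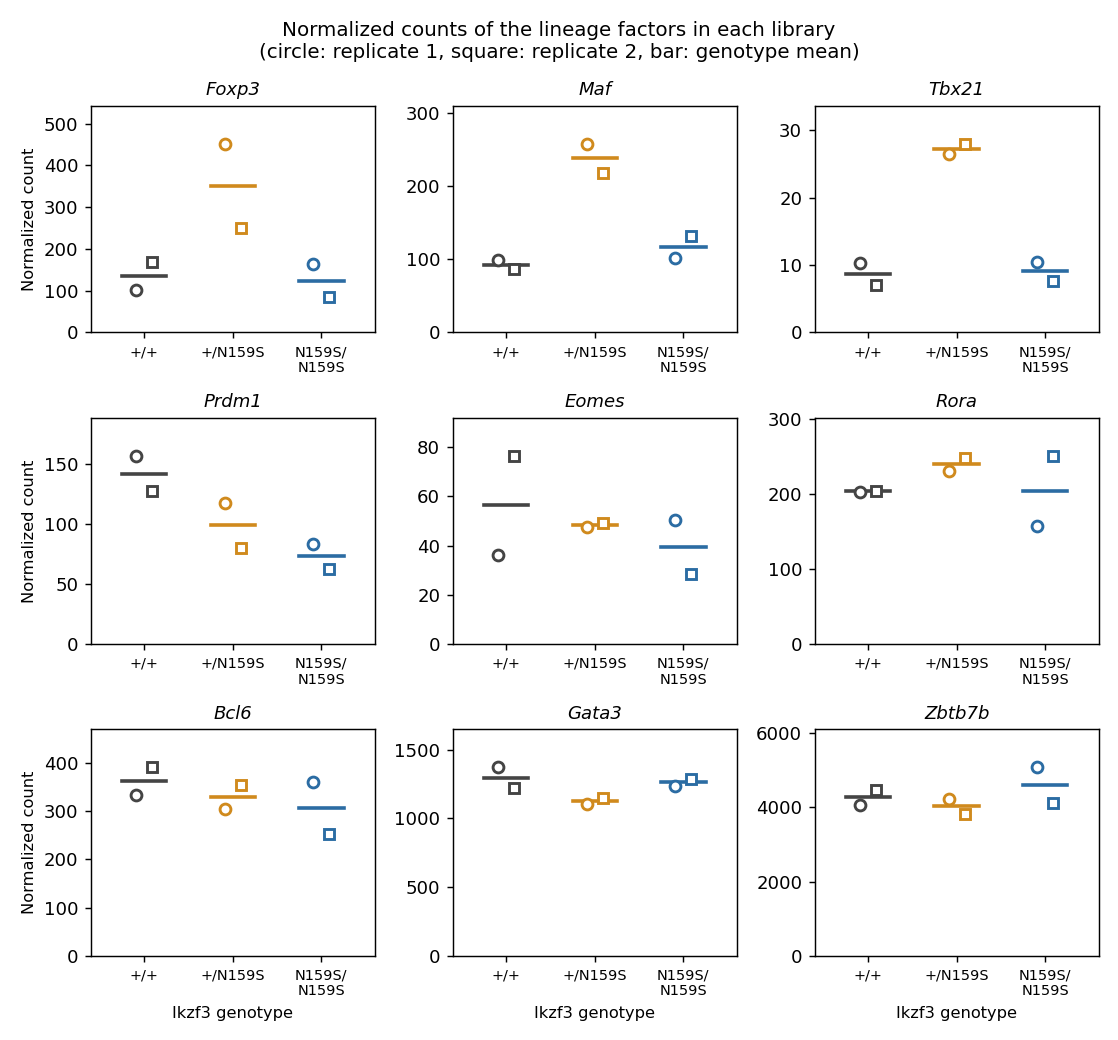
Normalized counts (linear axes from 0) of the 9 factors in each library by Ikzf3 genotype, with circles for replicate 1, squares for replicate 2 and a bar at each genotype's mean. Maf, Foxp3 and Tbx21 are highest in both Ikzf3 +/N159S libraries, and Prdm1 is lower in each Ikzf3 N159S/N159S library than in wild type.

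Maf encodes c-Maf, a bZIP factor that drives Il21 and Il10 in follicular helper, Th17 and regulatory cells (chr8:115682942-115707794 of GRCm38, minus strand). Its normalized count (scaled to the mean library size) was 98.99 and 86.61 for the Ikzf3 +/+ libraries, 258.0 and 218.8 for the Ikzf3 +/N159S libraries, and 101.9 and 131.6 for the Ikzf3 N159S/N159S libraries. The Ikzf3 +/N159S libraries were high, above every other library, and the Ikzf3 N159S/N159S libraries were close to but above wild type. Maf rose 2.59-fold in Ikzf3 +/N159S T cells (log2 fold change 1.37, standard error 0.20), with an FDR of 0.00758 in edgeR's quasi-likelihood test. It was lower in Ikzf3 N159S/N159S than in Ikzf3 +/N159S T cells, at a log2 difference of -1.05 (standard error 0.19, FDR = 0.0177). Against wild type the Ikzf3 N159S/N159S value was 0.33 on the log2 scale, with a 95% interval from -0.16 to 0.81 (FDR = 0.497). The rise in Ikzf3 +/N159S passed in 8 of 8 other planned settings and was lost without replicate 2 of Ikzf3 +/+ (FDR = 0.0761). The difference between the variant genotypes was lost without replicate 1 of Ikzf3 +/N159S (FDR = 0.0814) or replicate 1 of Ikzf3 N159S/N159S (FDR = 0.139). In bulk RNA, fewer cells of a type and less RNA per cell cannot be told apart. Beside these values, the sum of 10 memory and effector markers was 313 and 342 CPM for Ikzf3 +/+, 434 and 395 CPM for Ikzf3 +/N159S and 416 and 403 CPM for Ikzf3 N159S/N159S libraries, and the B cell sum was highest in the Ikzf3 +/N159S libraries. Of these memory and effector markers 1 of 10 was higher in Ikzf3 +/N159S than in Ikzf3 +/+ (list median log2 fold change 0.50), while between the variant genotypes 5 of 10 were lower with both alleles variant and 0 were higher (list median -1.16). Against Ikzf3 +/+, Ikzf3 N159S/N159S libraries had 2 of the 10 higher and 1 lower, with 6 values negative (list median -0.39). The summed level shows neither this median nor the difference between the variant genotypes, since abundant genes such as Ahnak (93.8 to 188 CPM) weigh most in it. Their part in the Maf difference was not tested.

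The genes whose log2 CPM followed Maf most closely over the 6 libraries, among 10412 genes, were Ikzf2 (Pearson r = 0.993), which encodes the Ikaros family member Helios, then Dnajc27 (r = 0.984) and Thumpd3 (r = 0.982). This is a description over libraries that fall into 3 genotypes. Ikzf2 itself was at normalized counts of 222.4 and 194.4 for Ikzf3 +/+, 399.3 and 337.4 for Ikzf3 +/N159S and 226.5 and 251.1 for Ikzf3 N159S/N159S libraries. Helios transcripts thus rose in Ikzf3 +/N159S T cells (log2 fold change 0.83, standard error 0.15, FDR = 0.0230).

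Foxp3 encodes the forkhead factor of regulatory T cells and is on the X chromosome (chrX:7573644-7595245 of GRCm38, plus strand). The sequence around its start in RefSeq is shown because Aiolos and Ikaros bind a core of GGGAA, so that the letters of that core in a promoter can be seen. The core was searched on both strands, as GGGAA and TTCCC, in windows of 250 bases before to 50 bases after each start, and 62.7% of all 32851 windows of that length held it at least once. Of the 9 factors 8 had windows, Maf being the exception, and 7 of their 11 windows held a match. Capitals mark the matches in the upstream of the Foxp3 windows, which held 1 match (chrX:7579426-7579725 of GRCm38.p6, plus strand, 5′ to 3′).
Foxp3: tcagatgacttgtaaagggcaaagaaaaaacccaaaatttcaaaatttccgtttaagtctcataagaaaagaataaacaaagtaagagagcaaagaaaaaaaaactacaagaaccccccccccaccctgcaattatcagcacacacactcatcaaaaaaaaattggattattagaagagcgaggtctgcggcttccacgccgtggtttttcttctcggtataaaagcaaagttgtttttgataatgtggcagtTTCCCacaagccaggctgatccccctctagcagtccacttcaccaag
A match in these letters is no evidence of binding, and binding was not analysed here.

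Foxp3 had normalized counts of 102.8 and 168.2 for Ikzf3 +/+, 451.4 and 249.7 for Ikzf3 +/N159S and 162.9 and 85.54 for Ikzf3 N159S/N159S libraries. Both Ikzf3 +/N159S libraries were above all others, yet they differed from each other by more than the Ikzf3 +/+ libraries did. The log2 fold change of Ikzf3 +/N159S against Ikzf3 +/+ was 1.35 (standard error 0.33) with an unadjusted p of 0.00154 from edgeR's quasi-likelihood test, and the FDR of 0.0652 missed the threshold. It passed in 3 of 8 other planned settings, with an FDR from 8.04e-06 with no filter on low counts to 0.218 with DESeq2, and in 3 of 6 fits with a library left out. Foxp3 was lower in Ikzf3 N159S/N159S than in Ikzf3 +/N159S T cells (log2 fold change -1.47, standard error 0.32, FDR = 0.0466) and in Ikzf3 +/N159S T cells lay 1.41 above the log2 midpoint between the homozygous genotypes (FDR = 0.0324). Ikzf3 N159S/N159S and Ikzf3 +/+ differed by -0.12, with a 95% interval from -0.93 to 0.69 (FDR = 0.918). The call between the variant genotypes was close to the threshold and held in 5 of 8 other planned settings. It was lost without replicate 1 of Ikzf3 +/N159S (log2 fold change -0.97, FDR = 0.221), without replicate 2 of Ikzf3 N159S/N159S (-1.09, FDR = 0.239), with DESeq2 (FDR = 0.202), with at least 10 counts in every library (FDR = 0.0515) and with edgeR's earlier quasi-likelihood test (FDR = 0.0557). The departure from the midpoint was lost without either of those libraries (FDR = 0.233 and 0.0552), without replicate 1 of Ikzf3 +/+ (FDR = 0.0564) and with DESeq2 (FDR = 0.145).

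Several values moved with Foxp3. Foxp3 is X-linked, and the Ikzf3 +/N159S libraries were the ones that carried Xist. The library with more Foxp3 had the larger B cell marker sum within Ikzf3 +/+ (292 against 189 CPM) and within Ikzf3 N159S/N159S (197 against 129 CPM), and the smaller one within Ikzf3 +/N159S (512 against 837 CPM). In each of the 3 genotypes the library with more Foxp3 was the one in which fewer genes had a read. The sum of 7 regulatory T cell markers without Foxp3 was 194 and 191 CPM for Ikzf3 +/+, 217 and 221 CPM for Ikzf3 +/N159S and 159.03 and 151 CPM for Ikzf3 N159S/N159S libraries, which do not overlap between genotypes. Izumo1r weighs most in this sum, at 79.87 and 89.14 CPM for Ikzf3 +/+, 71.35 and 81.4 CPM for Ikzf3 +/N159S and 52.54 and 39.85 CPM for Ikzf3 N159S/N159S. It was the 1 marker of 7 called lower in Ikzf3 N159S/N159S than in Ikzf3 +/+ (FDR under 0.05), and 3 of 7 had positive values. The part of sex and of cell composition in the Foxp3 values was not tested. Foxp3 exons share 590 bases with Ccdc22 on the opposite strand and 274 bases with Flicr on the same strand, and since the use of strand in counting was not given in the sources used here, reads there are uncertain. The genes most like Foxp3 over the 6 libraries were Las1l (r = 0.993), Tor3a (r = 0.983) and Sptlc1 (r = 0.978), given as a description.

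**Figure D3:**
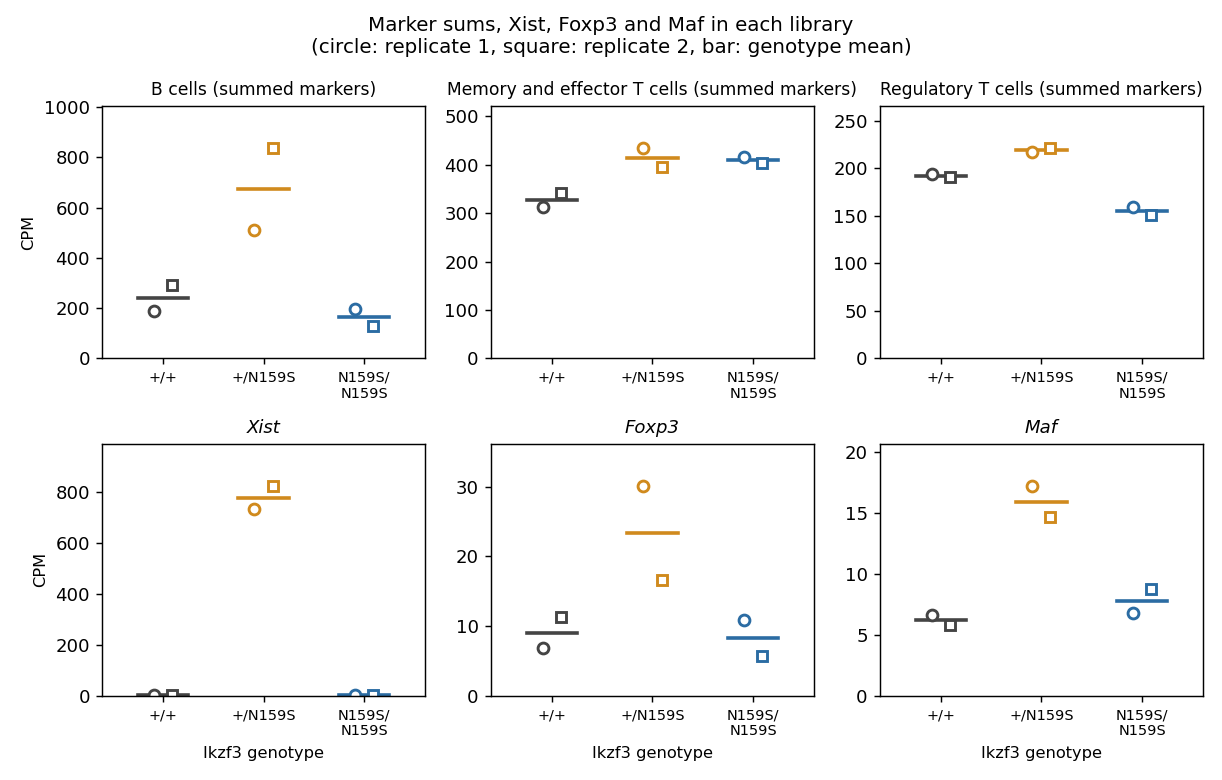
CPM per library of summed B cell, memory and effector T cell and regulatory T cell markers (upper panels) and of Xist, Foxp3 and Maf (lower panels), with circles for replicate 1, squares for replicate 2 and a bar at the genotype mean. Xist and the B cell sum are high in the same libraries as Foxp3 and Maf. The regulatory marker sum, in which Izumo1r weighs most, is also lowest in Ikzf3 N159S/N159S.

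Tbx21 encodes T-bet, the T-box factor of Th1 cells (chr11:97098071-97115331 of GRCm38, minus strand). Its promoter window is shown beside that of Foxp3 because both genes had their highest counts in the same libraries, and it too held 1 match to the core, in capitals (chr11:97115282-97115581 of GRCm38.p6, minus strand).
Tbx21: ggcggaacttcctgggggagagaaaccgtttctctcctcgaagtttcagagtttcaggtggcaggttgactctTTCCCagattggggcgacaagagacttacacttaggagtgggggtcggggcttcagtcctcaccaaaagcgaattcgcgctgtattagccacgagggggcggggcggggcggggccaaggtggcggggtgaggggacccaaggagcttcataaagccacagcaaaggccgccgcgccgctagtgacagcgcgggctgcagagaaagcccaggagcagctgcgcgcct
The gene was near the lower limit of what these libraries can resolve, with raw counts of 8 and 7 reads for Ikzf3 +/+, 30 and 29 for Ikzf3 +/N159S and 12 and 7 for Ikzf3 N159S/N159S libraries. After normalization these were 10.28 and 7.050, 26.50 and 27.96, and 10.45 and 7.676. Both Ikzf3 +/N159S libraries were above the other 4, and the other genotypes overlapped each other. The log2 fold change of Ikzf3 +/N159S against Ikzf3 +/+ was 1.67 (standard error 0.49, FDR = 0.122) and that of Ikzf3 N159S/N159S against Ikzf3 +/N159S was -1.55 (standard error 0.46, FDR = 0.149), so that neither passed. Tbx21 passed the first comparison in 1 of 7 other planned settings, edgeR's likelihood ratio test (FDR = 0.0228), while DESeq2 gave an FDR of 0.281. It also passed with a term for the number of genes detected, a setting chosen after seeing the data (FDR = 0.0387). Leaving out each library in turn moved its log2 fold change between 1.39 and 1.93. Eomes, the other T-box factor (chr9:118478212-118486132, plus strand), had normalized counts of 36.00 and 76.54 for Ikzf3 +/+, 47.71 and 49.17 for Ikzf3 +/N159S and 50.52 and 28.51 for Ikzf3 N159S/N159S libraries. The Ikzf3 +/+ libraries enclosed both Ikzf3 +/N159S libraries, and no comparison of Eomes passed. Its interval for Ikzf3 N159S/N159S against Ikzf3 +/+ ran from 0.387-fold to 1.26-fold (FDR = 0.545), a range that holds both a fall and a small rise.

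Gata3 and Zbtb7b were the best measured factors and had the narrowest intervals. Gata3, a zinc finger factor that is needed for CD4 development and for Th2 cells (chr2:9857078-9890034, minus strand), had normalized counts of 1372 and 1217 for Ikzf3 +/+, 1104 and 1149 for Ikzf3 +/N159S and 1234 and 1289 for Ikzf3 N159S/N159S libraries. The Ikzf3 +/N159S libraries were the lowest of the 6, by a small margin. Against Ikzf3 +/+ the log2 fold change was -0.20 in Ikzf3 +/N159S (standard error 0.10, FDR = 0.364) and -0.04 in Ikzf3 N159S/N159S T cells (FDR = 0.906). The 95% interval for Ikzf3 N159S/N159S ran from 0.836-fold to 1.14-fold. Zbtb7b, which represses the CD8 programme in CD4 cells (chr3:89377644-89394776, minus strand), had 4072 and 4472 for Ikzf3 +/+, 4229 and 3830 for Ikzf3 +/N159S and 5086 and 4131 for Ikzf3 N159S/N159S libraries. The genotypes overlapped in every comparison. Its interval for Ikzf3 N159S/N159S against Ikzf3 +/+ was 0.905-fold to 1.29-fold (FDR = 0.688), and for Ikzf3 +/N159S 0.791-fold to 1.12-fold (FDR = 0.763). Changes larger than these bounds lie outside the fitted intervals.

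Rora encodes a nuclear receptor of the Th17 and innate lymphoid programmes (chr9:68653786-69388246, plus strand). Normalized counts were 203.1 and 203.4 for Ikzf3 +/+, 230.6 and 247.8 for Ikzf3 +/N159S and 157.7 and 251.1 for Ikzf3 N159S/N159S libraries. The Ikzf3 N159S/N159S libraries held both the lowest and the highest value, and nothing passed (FDR = 0.610 for Ikzf3 +/N159S and 0.986 for Ikzf3 N159S/N159S against Ikzf3 +/+). Its exons share 82 bases with Gm15511 on the opposite strand.

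Bcl6 and Prdm1 encode repressors that oppose each other in the choice between follicular helper and other effector fates. Bcl6 (chr16:23965052-23988852, minus strand) had normalized counts of 334.3 and 391.8 for Ikzf3 +/+, 304.8 and 355.7 for Ikzf3 +/N159S and 360.6 and 253.3 for Ikzf3 N159S/N159S libraries. The genotypes overlapped, and the interval for Ikzf3 N159S/N159S against Ikzf3 +/+ was 0.649-fold to 1.11-fold (FDR = 0.552). Prdm1 (chr10:44437177-44528501, minus strand) had 156.8 and 126.9 for Ikzf3 +/+, 117.5 and 80.01 for Ikzf3 +/N159S and 83.62 and 62.51 for Ikzf3 N159S/N159S libraries. Every library of Ikzf3 N159S/N159S was under the wild-type libraries, the Ikzf3 +/N159S libraries lay below Ikzf3 +/+ too, and the variant genotypes overlapped each other. The log2 fold change with both alleles variant was -0.93 (standard error 0.25, unadjusted p = 0.00367), a 0.526-fold level with a 95% interval from 0.357-fold to 0.774-fold, and the FDR of 0.0616 in edgeR's quasi-likelihood test missed the threshold. The value in Ikzf3 +/N159S was -0.50 (standard error 0.24, FDR = 0.327). Prdm1 passed in Ikzf3 N159S/N159S under 4 of 8 other planned settings, for example when only the genotypes compared were fitted (FDR = 0.0350). Over these 8 settings its FDR ran from 0.00894 to 0.0623. Leaving out each library in turn moved its log2 fold change between -1.17 and -0.74. Blimp-1 is also the factor of plasma cells, whose markers Jchain and Sdc1 were at 0.515 to 1.77 CPM and at 0.0859 to 0.580 CPM over the 6 libraries. Mzb1 and Xbp1 of the same list were at 0.659 to 3.26 CPM and at 42 to 60.4 CPM. The 3 genes of that list that were tested had positive values in Ikzf3 N159S/N159S against Ikzf3 +/+, and 0 passed (list median 0.44). The part of plasma cells in the Prdm1 values was not tested.

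The Prdm1 promoter window is shown because it held the most matches to the Ikaros family core of any member window, 4, with 2.31% of all windows holding at least 4 (chr10:44458699-44458998 of GRCm38.p6, minus strand, matches in capitals). That share holds for a single window, whereas this one was picked as the highest of 11 member windows. The windows of Gata3 and Eomes held none.
Prdm1: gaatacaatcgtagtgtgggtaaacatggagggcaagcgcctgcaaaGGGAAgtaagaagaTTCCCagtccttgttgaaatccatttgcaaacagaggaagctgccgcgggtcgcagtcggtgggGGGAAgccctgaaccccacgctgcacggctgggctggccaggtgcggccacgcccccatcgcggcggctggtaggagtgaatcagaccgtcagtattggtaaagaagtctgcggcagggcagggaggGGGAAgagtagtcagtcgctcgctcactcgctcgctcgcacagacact
As for Foxp3, this describes letters and not a site.

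**Figure D4:**
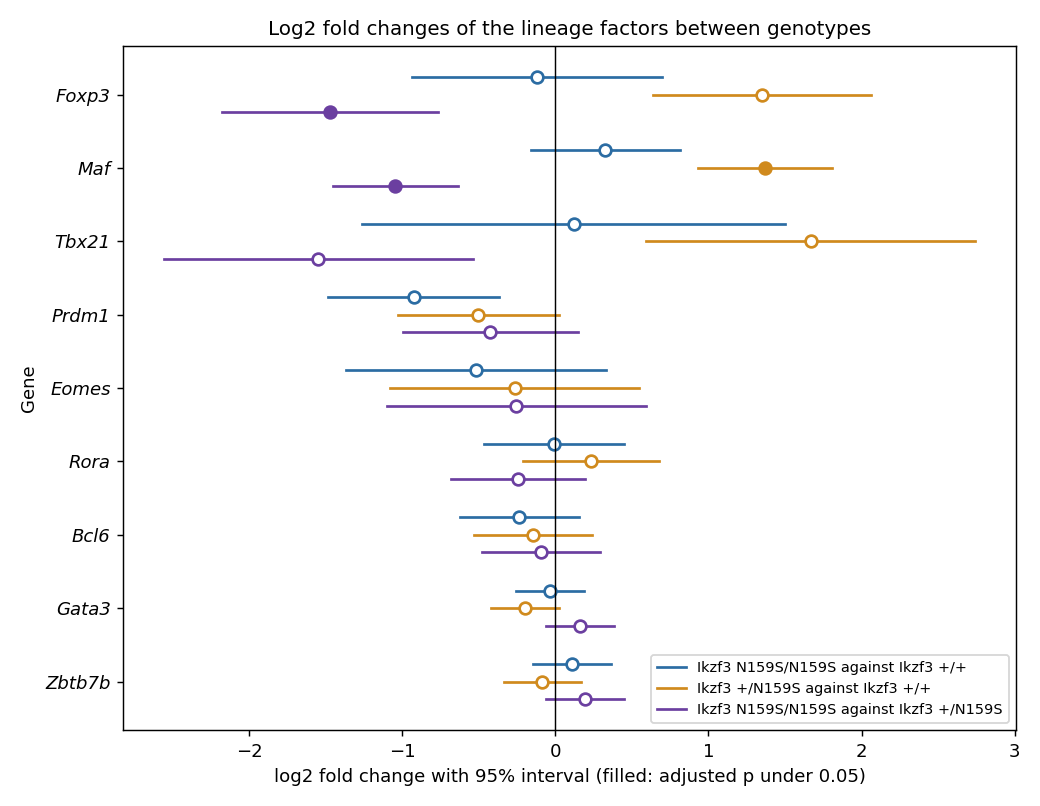
Log2 fold changes (points) with 95% intervals (lines) of the 9 factors for the 3 comparisons between genotypes, with filled points at an FDR under 0.05. Only Maf against Ikzf3 +/+ in Ikzf3 +/N159S, and Maf and Foxp3 between the variant genotypes, are filled. Some intervals exclude 0 without passing. These are Prdm1 for Ikzf3 N159S/N159S against Ikzf3 +/+, Foxp3 for Ikzf3 +/N159S against Ikzf3 +/+, and Tbx21 for both comparisons with Ikzf3 +/N159S.

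Partners that act with these factors were read from a list of 20 regulators, of which 20 were tested. Calls in this and the later lists stand beside 5.26% of all tested genes called in Ikzf3 N159S/N159S against Ikzf3 +/+. The share was 1.75% in Ikzf3 +/N159S against Ikzf3 +/+ and 1.66% between the variant genotypes. With both alleles variant 1 regulator rose and 1 fell against Ikzf3 +/+ (list median log2 fold change 0.02, all tested genes 0.00). The one that fell was Irf4, the interferon regulatory factor that acts with c-Maf, Batf and Blimp-1 in effector cells. Irf4 had normalized counts of 248.1 and 306.2 for Ikzf3 +/+, 128.1 and 181.2 for Ikzf3 +/N159S and 52.26 and 50.44 for Ikzf3 N159S/N159S libraries. These step down with each variant allele and no genotype overlaps another. The log2 fold change was -2.44 in Ikzf3 N159S/N159S (standard error 0.23, FDR = 0.000153) and -0.86 in Ikzf3 +/N159S T cells (standard error 0.19, FDR = 0.0527). Klf2, a factor of T cell quiescence and trafficking, rose in Ikzf3 N159S/N159S T cells by 0.54 on the log2 scale (standard error 0.11, FDR = 0.0195). Against Ikzf3 +/+, 1 regulator rose in Ikzf3 +/N159S T cells, the homeodomain-only protein gene Hopx, by 1.02 (standard error 0.22, FDR = 0.0462). Ikzf3 was at 2351 and 2312 for Ikzf3 +/+, 2511 and 2278 for Ikzf3 +/N159S and 2950 and 3032 for Ikzf3 N159S/N159S libraries, which for Ikzf3 N159S/N159S was 0.36 above Ikzf3 +/+ on the log2 scale (standard error 0.09, FDR = 0.0490). These counts do not separate the alleles, so they do not check the genotype labels.

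Beside Foxp3, a list of 15 genes of the regulatory programme was read, of which 14 were tested. In Ikzf3 +/N159S against Ikzf3 +/+ T cells 3 rose, 0 fell and 11 did not pass, with a median log2 fold change of 0.52 beside 0.01 over all tested genes. The 3 were Capg (0.85, FDR = 0.00453), an actin capping protein, Ikzf2 (0.83, given above) and Itgae (1.39, FDR = 0.0299), the integrin CD103. In Ikzf3 N159S/N159S against Ikzf3 +/N159S T cells 4 were lower and all 14 had negative values, with a median of -0.59 beside -0.01 over all genes. Among these were Il2ra and Nrp1, named here after their values were seen. Il2ra, the alpha chain of the interleukin 2 receptor, had normalized counts of 132.4 and 143.0 for Ikzf3 +/+, 232.4 and 189.9 for Ikzf3 +/N159S and 88.84 and 58.12 for Ikzf3 N159S/N159S libraries, which did not overlap, and was lower in Ikzf3 N159S/N159S than in Ikzf3 +/N159S with a log2 difference of -1.50 (FDR = 0.00663). Nrp1, neuropilin 1, followed with -0.97 (FDR = 0.0237). Against wild type, Ikzf3 N159S/N159S T cells had 1 gene higher, Capg (0.60, FDR = 0.00955), and 1 lower, Izumo1r (-0.87, FDR = 0.00390), the folate receptor 4, with a list median of -0.01.

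The programmes of the T-box factors, GATA3 and ROR-alpha were read from 12 genes each. For Th1 cells 10 of 12 listed genes were tested. In Ikzf3 +/N159S T cells 2 rose, the chemokine receptor gene Cxcr3 (2.17, FDR = 0.0169) and the interleukin 18 receptor gene Il18r1 (0.63, FDR = 0.0169), and the list median was 0.34. Ikzf3 N159S/N159S T cells had a rise of Il18r1 (0.89, FDR = 0.000659) and a fall of Il2rb (-1.53, FDR = 0.000436), and the list median was -0.24. Cxcr3, a target of T-bet, had normalized counts of 12.86 and 19.13, 86.58 and 60.73, and 11.32 and 13.16 for Ikzf3 +/+, Ikzf3 +/N159S and Ikzf3 N159S/N159S libraries, high in the libraries in which Tbx21 was high. Ifng itself had at most 13 reads in a library and was not tested. Between the variant genotypes 4 Th1 genes were lower in Ikzf3 N159S/N159S and 0 higher, with a list median of -0.71 and 8 of 10 values negative. Over all tested genes 1.66% were called in that comparison, and the median was -0.01.

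Of 12 Th2 genes 7 were tested, since Il4, Il5 and Il13 were at 0 to 12 reads. Il1rl1, the receptor of interleukin 33, rose in Ikzf3 +/N159S T cells (2.22, FDR = 0.0199). With both alleles variant 0 of 7 passed against wild type, with 1 at an unadjusted p under 0.05, 0 by DESeq2 and 0 by edgeR's likelihood ratio test. Set against Ikzf3 +/N159S, 2 of 7 were lower in Ikzf3 N159S/N159S (Il1rl1 and Ccr4) and 0 higher, with a list median of -0.285. For Th17 cells 8 of 12 were tested, and Il17a had at most 1 read in a library. Ccr6, the chemokine receptor of Th17 cells, which B cells also carry, rose in Ikzf3 +/N159S T cells (2.08, FDR = 0.0233). In Ikzf3 N159S/N159S against Ikzf3 +/+ 0 of 8 passed, with 5 at an unadjusted p under 0.05, 1 by DESeq2 and 4 by the likelihood ratio test. Between the variant genotypes 0 of 8 passed too, with a list median of -0.219.

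**Figure D5:**
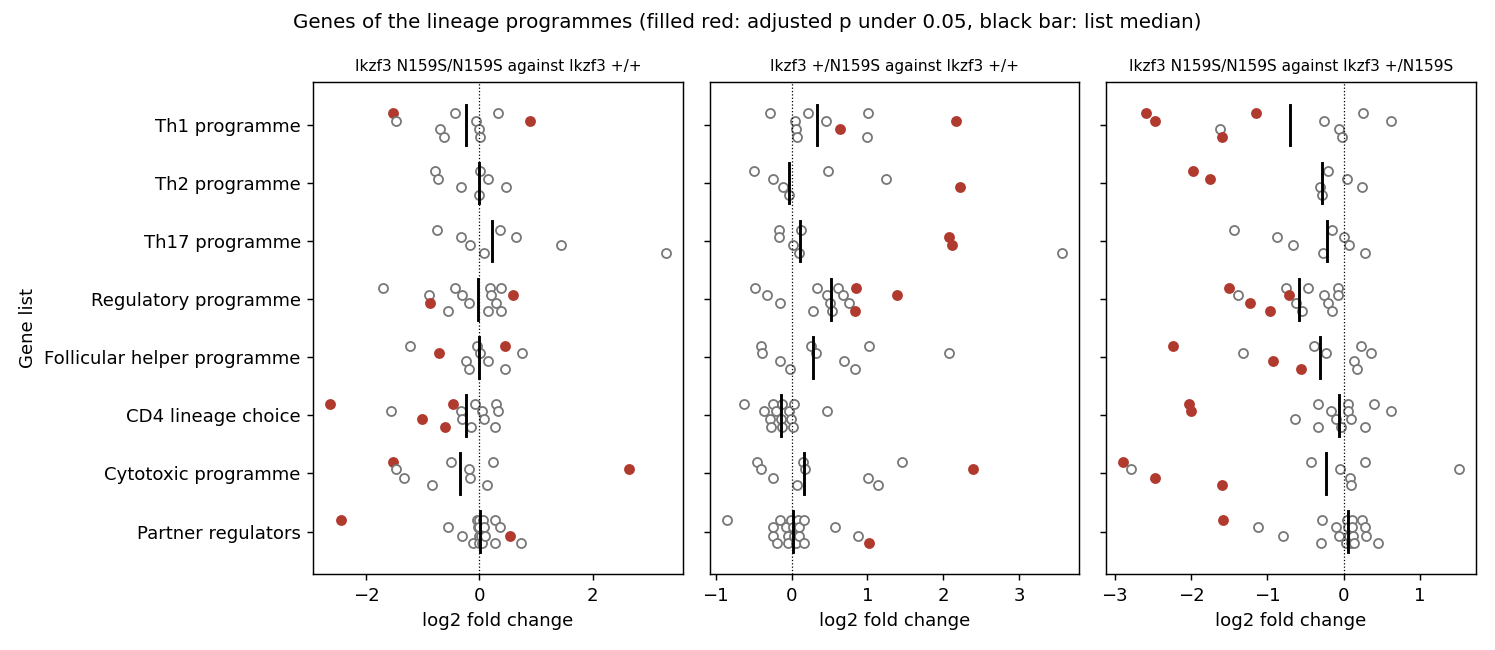
Log2 fold changes of the tested genes of each lineage programme (rows) in the 3 comparisons (panels), with red points at an FDR under 0.05 and a black bar at each list's median. The regulatory and Th1 lists are shifted to the right in Ikzf3 +/N159S against Ikzf3 +/+ and to the left in Ikzf3 N159S/N159S against Ikzf3 +/N159S. The medians of the Th17, follicular helper and cytotoxic lists lie on the same sides, closer to the zero line. The CD4 lineage list has its red points on the left in Ikzf3 N159S/N159S against Ikzf3 +/+.

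Around Bcl6, 10 of 12 genes of the follicular helper programme were tested. Icos, the inducible costimulator, fell in Ikzf3 N159S/N159S T cells (-0.71, FDR = 0.00275) and Slamf6 rose (0.45, FDR = 0.0173), with a list median of -0.01. In Ikzf3 +/N159S T cells 0 of 10 passed in edgeR's quasi-likelihood test, with 6 at an unadjusted p under 0.05, 0 by DESeq2 and 2 by the likelihood ratio test. Set against Ikzf3 +/N159S, 3 of 10 were lower in Ikzf3 N159S/N159S (Cxcr5, Icos and Pou2af1) and 0 higher, with a list median of -0.315. Il21, which c-Maf drives, had at most 4 reads in a library.

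Around Zbtb7b, 14 genes of the choice between the CD4 and CD8 lineages were tested. Compared with Ikzf3 +/+, 4 fell and 0 rose in Ikzf3 N159S/N159S T cells, with a median of -0.23 beside 0.00 over all genes. Cd8b1, the beta chain of CD8, fell most (-2.63, standard error 0.30, FDR = 0.000502), from 300.8 and 197.4 for Ikzf3 +/+ to 47.04 and 30.71 for Ikzf3 N159S/N159S libraries, with 185.5 and 131.1 for Ikzf3 +/N159S libraries. Myb (-1.01, FDR = 0.00374), Lef1 (-0.60, FDR = 0.0391) and Runx1 (-0.46, FDR = 0.0259), which are transcription factors of T cell development, fell as well. In Ikzf3 +/N159S T cells 0 of 14 passed, with 2 at an unadjusted p under 0.05, 0 by DESeq2 and 0 by the likelihood ratio test. Set against Ikzf3 +/N159S, 2 of 14 were lower in Ikzf3 N159S/N159S (Cd8a and Cd8b1) and 0 higher, with a list median of -0.068. Beside Cd8b1, the sum of 10 CD8 T and NK cell markers was 68.9 and 71.9 CPM for Ikzf3 +/+, 61.2 and 56.7 CPM for Ikzf3 +/N159S and 45.4 and 42.0 CPM for Ikzf3 N159S/N159S libraries, a list that holds Cd8b1 itself, and the part of such cells was not tested.

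The cytotoxic programme of Eomes and T-bet had 10 of 12 genes tested. Gzma, granzyme A, rose in Ikzf3 N159S/N159S T cells (2.64, FDR = 0.0433) from 6.428 and 6.042 to 33.97 and 46.06, and Il2rb fell, as given for Th1 cells. The Ikzf3 +/+ libraries held only 5 and 6 reads of Gzma, and the Ikzf3 +/N159S libraries differed, at 22.97 and 3.856. The list as a whole went the other way from Gzma against Ikzf3 +/+, with a median of -0.34 and 7 of 10 values negative. In Ikzf3 +/N159S T cells Klrg1, a receptor of differentiated effector cells, rose (2.39, FDR = 0.0373) from 7.714 and 5.035 to 33.57 and 32.78, and stood at 4.355 and 4.386 for Ikzf3 N159S/N159S libraries. It was the 1 call of the list in that comparison, where DESeq2 called 0. Set against Ikzf3 +/N159S, 3 of 10 were lower in Ikzf3 N159S/N159S (Klrg1, Il2rb and Ccl5) and 0 higher, with a list median of -0.239.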

How the data were processed

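Splenic T cells of the 3 Ikzf3 genotypes were measured by poly(A) RNA-seq in 6 libraries, 2 per genotype. The authors trimmed reads with Trimmomatic 0.38.1, mapped them to mm10 with HISAT2 2.2.1, counted them on refGene genes with HTSeq 2.0.2 and deposited the counts without normalization, and whether counting used strand was not given in the sources used here. The labels do not tie libraries to animals, and the methods do not state the number of wild-type mice for the T cells alone, so p-values measure the spread between libraries. The counts were then filtered, scaled and fitted with edgeR 4.0.16 (R 4.3.3), by filterByExpr (minimum count 10, minimum total count 15), TMM scaling, and a quasi-likelihood fit with a coefficient per genotype over 6 libraries. P-values were adjusted by Benjamini-Hochberg over the 12117 genes tested, and 0.05 was the limit for a call. Normalized counts were brought to the mean effective library size, intervals are 95% intervals of the fit, and RPKM used merged exon lengths of GENCODE M21. The fit was repeated with DESeq2 1.42.0, with size factors in place of TMM, other filters, a replicate block, the likelihood ratio and earlier quasi-likelihood tests of edgeR, fits of only the genotypes compared, each library left out, and, chosen after seeing the data, a term for the split by genes detected. Reads on no gene were left out, and B cell libraries were not analysed here. Promoter sequences are RefSeq's (GRCm38.p6). Genes named were the 9 members, Ikzf3, up to 6 genes per list past the threshold against Ikzf3 +/+ (otherwise the 2 with the lowest p), and the 3 genes most like a called member, among those whose mean log2 CPM reached 1 (prior count 2). A gene of the lists is not reported here. Members and lists were chosen with earlier results of these data known.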

Additional observations from a re-analysis of the deposited data

How the results depend on the processing

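With 2 libraries per genotype and Tbx21 at 7 to 30 reads, a missed threshold says little about low genes. Over 36 member log2 fold changes, 285 of 310 values under other settings and 181 of 216 with a library left out kept direction and side of the threshold. All 28 changes of direction were in values that passed in neither fit. With DESeq2 they were Rora in Ikzf3 N159S/N159S against Ikzf3 +/+ (0.0012) and Eomes above the midpoint (0.016). Eomes changed sign above the midpoint also with at least 10 counts in every library (0.00016), the likelihood ratio test (0.024), the earlier quasi-likelihood test (0.019) and the term for genes detected (0.017). With a library left out, values ranged as follows. For Ikzf3 N159S/N159S against Ikzf3 +/+ they were -0.69 to 0.31 for Foxp3, -0.15 to 0.38 for Tbx21, -1.03 to 0.18 for Eomes, -0.12 to 0.052 for Gata3, -0.36 to 0.30 for Rora and -0.049 to 0.26 for Zbtb7b. For Ikzf3 +/N159S against Ikzf3 +/+ Eomes ranged from -0.66 to 0.43. Between the variant genotypes the range was -0.58 to 0.071 for Rora, -0.76 to 0.081 for Eomes and -0.38 to 0.15 for Bcl6. Against the midpoint it was -0.20 to 0.34 for Eomes, -0.15 to 0.12 for Bcl6 and -0.35 to 0.20 for Prdm1.

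The counts of members called moved as follows, in the order Ikzf3 N159S/N159S against Ikzf3 +/+, Ikzf3 +/N159S against Ikzf3 +/+, the variant genotypes, and the midpoint. Calls were 0, 1, 2 and 2 as reported, 0, 1, 1 and 1 with DESeq2, 1, 2, 2 and 3 with no filter on low counts, 1, 3, 3 and 3 with the likelihood ratio test, and 1, 3, 2 and 3 with the term for genes detected. With at least 10 counts in every library, which drops Tbx21, and with the earlier quasi-likelihood test, 1 was called between the variant genotypes. Fitting only the genotypes compared gave 1 in the first and 2 in the second comparison, left Tbx21 out of the first and gives no midpoint. Replicate numbers did not pair the libraries (correlations of deviations -0.167, -0.216 and 0.238), and the replicate block gave 1, 1, 2 and 2. With a library left out, 0 to 1, 0 to 2, 0 to 2 and 1 to 2 were called. The lone library then left is assumed to vary like the others.

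All tested genes called were 637, 212, 201 and 125. DESeq2 gave 341 in the second comparison and 194 against the midpoint, no filter gave 542, 486 and 339 in the last 3, the likelihood ratio test gave 1042, 640, 473 and 356, the replicate block 514, 170, 168 and 120, and the term for genes detected 1756, 1422, 877 and 737. With a library left out the ranges were 221 to 751, 68 to 250, 62 to 205 and 66 to 117. Where calls were lost the cause was not tested.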
